A study of Homo sapiens with 24 samples.

Results

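The FOS and JUN families, together with ATF3, EGR1 and IER2, were followed through knockdown of IGF2BP1 in 4 human cancer cell lines. These 10 genes, FOS, FOSB, FOSL1, FOSL2, JUN, JUNB, JUND, ATF3, EGR1 and IER2, were taken by symbol, and each was listed in all 4 tables among 58174 genes. IGF2BP1 is an oncofetal protein that binds mRNAs, and after its knockdown the genes did not move alike in all lines. With the deposited scaling ES2 and MV3 shared called falls of FOSL1, FOSL2 and IER2. JUN, JUNB, JUND and ATF3 were called in neither. FOSL1 fell in ES2, MV3 and PANC1 and was not called in A549. JUN rose in A549 and PANC1, and JUNB and JUND fell in A549 and rose in PANC1, where ATF3 rose as well. The rises in PANC1 were no longer called with its libraries rescaled to equal sums, under which 55.8% of all genes were lower. The median log2 fold change of all genes there was then -0.68. Relative to it JUN was at 0.96, JUNB 0.61, JUND 0.79, ATF3 1.05 and FOSL2 0.29. Scaled by total reads, a choice made after seeing the data, the rises of JUN, JUNB, JUND and ATF3 stayed called.

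AP-1 is a transcription factor made of a pair of leucine zipper proteins, usually a FOS family protein with a JUN family protein, and it binds DNA at a short palindrome named the TPA response element. Most of its genes belong to the immediate early genes, which are switched on within minutes of a growth factor or stress signal without new protein synthesis and whose mRNAs are often short-lived. SRF with its ELK partners, themselves phosphorylated by ERK kinases, drives FOS and EGR1 through CArG boxes, and JNK kinases act on JUN. In solid tumours FOSL1 and JUN are known for their part in invasion and proliferation.

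The cells were A549 (lung adenocarcinoma), ES2 (ovarian cancer), MV3 (melanoma) and PANC1 (pancreatic ductal adenocarcinoma), each an established line and so a model of a single tumour. Each line received control siRNA (siC) or several pooled siRNAs directed at IGF2BP1 and not at its paralogs (siI1). RNA was taken after 72 h, in PANC1 after 96 h, and sequenced after removal of ribosomal RNA, in 3 libraries for each of the 8 groups. All cells grew in medium with serum, and no stimulus of immediate early genes is described. In bulk RNA fewer cells with a transcript and less of it per cell cannot be told apart.

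Levels are given as FPKM, reads per kilobase of gene length relative to the authors' scaled library size. They were compared within a line on the scale of log2(FPKM + 0.5), which understates the change of low genes, and a gene was called at an adjusted p under 0.05 in limma, after Benjamini-Hochberg adjustment across the genes of that line that were tested. Since each table was normalised on its own, levels of different lines are only set side by side. Reads assigned to genes ran from 3105215 to 20082702 per library, lowest in A549 and highest in MV3. IGF2BP1 itself fell in every line, by 1.32 on the log2 scale in A549, 1.52 in MV3, 1.55 in ES2 and 1.83 in PANC1, with no overlap between siC and siI1 libraries. Lineage markers were partly absent: NKX2-1, SFTPB, SFTPC and NAPSA in A549, PAX8, WT1 and MUC16 in ES2, and all 7 melanocyte markers in MV3 were under 0.5 FPKM in siC, against only GATA6 of 8 markers in PANC1. The 7SL RNA gene RN7SL2 took 50.1% to 56.2% of the summed FPKM in the PANC1 siC libraries and 62.0% to 64.6% in the siI1 libraries. Its part in the PANC1 values was not tested beyond rescaling the libraries to equal sums. Under that scaling 55.8% of all genes tested in PANC1 were lower and 0.600% higher, and their median log2 fold change was -0.68. All PANC1 values given with equal sums stand beside that median.

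IGF2BP1 is known to act on mRNAs mainly through their 3'UTRs, and AU-rich pentamers there are a textbook mark of short-lived immediate early mRNAs. ATTTA was found in the 3'UTR of the canonical transcript (GENCODE 44, hg38) of 9 of the 10 genes, IER2 having none, against 68.1% of 19140 genes. The longer form TTATTTATT was present in 2 of them, FOS and FOSL2, against 8.54% of genes. FOS had 5 ATTTA in 806 bases, or 6.20 per kb, which put it at the 94.6th percentile of all genes, while FOSL1 had 1 in 837 bases and FOSL2 had 9 in 4869 bases. The sites shown are those with the longer form and, because it fell in most lines, the single site of FOSL1. Capitals mark each ATTTA, and overlapping copies run together.
FOS, chr14:75282060-75282089, plus strand: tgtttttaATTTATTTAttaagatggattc
FOSL2, chr2:28416355-28416384, plus strand: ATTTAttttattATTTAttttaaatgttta
FOSL1, chr11:65892271-65892300, minus strand: agggcagctgctATTTAttttcctaaagag
A match of letters is a description and not a measured site. By this count the gene that fell in 3 lines carried fewer pentamers per kb, 1.19, than the median gene, 1.54.

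Promoter sequence from 250 bases before to 50 bases after the start was taken from RefSeq (GRCh38.p14), where 9 of the genes had an entry. The CArG box, the binding sequence of SRF, was found in 1 of them, EGR1, which had 2, against 1.29% of 35116 promoters. The full cyclic AMP response element TGACGTCA, on which JUN and ATF dimers can also bind, was found only in JUND, against 1.85%, and its core TGACG or CGTCA in 8 of 9, against 24.6% of promoters, which includes the copies inside the full element. The TPA response element, TGACTCA or TGAGTCA, was found only in FOSL2, against 4.95%, and a TATA box, TATAAA or TATAAT, in FOS, FOSB and JUNB, against 10.4%. All were searched on both strands except the TATA box, which was searched only on the strand of the gene, and absence says only that the letters are not in this window. The EGR1 and JUND matches are shown, with the motif in capitals, since SRF fell in every line and JUND moved in opposite directions.
EGR1 first box, chr5:138465364-138465393, plus strand: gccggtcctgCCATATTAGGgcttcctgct
EGR1 second box, chr5:138465386-138465415, plus strand: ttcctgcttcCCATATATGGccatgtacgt
JUND, chr19:18281804-18281833, minus strand: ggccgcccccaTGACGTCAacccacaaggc
Counted from the start, the EGR1 boxes begin at -105 and -83, so that their windows share some bases, and the JUND element begins at -200.

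Of the 40 combinations of gene and line, 33 passed the filter of a mean of at least 0.5 FPKM, and 17 of them were called, 11 lower and 6 higher. FOSB passed in no line, and EGR1 passed only in ES2. In A549, 2 genes were lower and 1 higher of 8 tested, where 7.83% of all 18411 genes tested were lower and 5.93% higher. In ES2, 4 were lower and 0 higher of 9, where 13.0% of 16920 genes were lower and 10.5% higher. The 4 include EGR1, which passed the filter only through its high siC libraries. MV3 likewise had 4 lower and 0 higher, of 8 tested, where 19.5% of 16380 genes were lower and 16.3% higher, and PANC1 had 1 lower and 5 higher of 8, where 13.4% of 15846 genes were lower and 11.3% higher. With PANC1 libraries rescaled to equal sums the counts there became 2 lower and 0 higher, while 55.8% of all genes became lower and their median moved from -0.04 to -0.68. Scaling MV3 by total reads added 1 higher gene, JUNB. In ES2 the count of lower genes was 2 without siC replicate 1, siI1 replicate 2 or siI1 replicate 3, and 3 without any other library. Among all genes these fits called 1497 to 1720 lower in ES2, in place of 2201. In either direction, A549 had 13.8% of all genes called, ES2 23.5%, PANC1 24.8% and MV3 35.7%. Libraries of siC and siI1 did not overlap for 4 of 8 tested members in MV3 (50.4% of all genes), 5 of 8 in A549 (34.0%), 5 of 9 in ES2 (42.1%) and 7 of 8 in PANC1 (43.2%). No member was called higher in 3 or more lines, where 3.19% of 12816 genes were, or in all 4, where 0.577% were. In the direct test, 7 of the 8 genes tested in every line differed between lines, where 45.0% of 12816 genes did so.

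**Figure D1:**
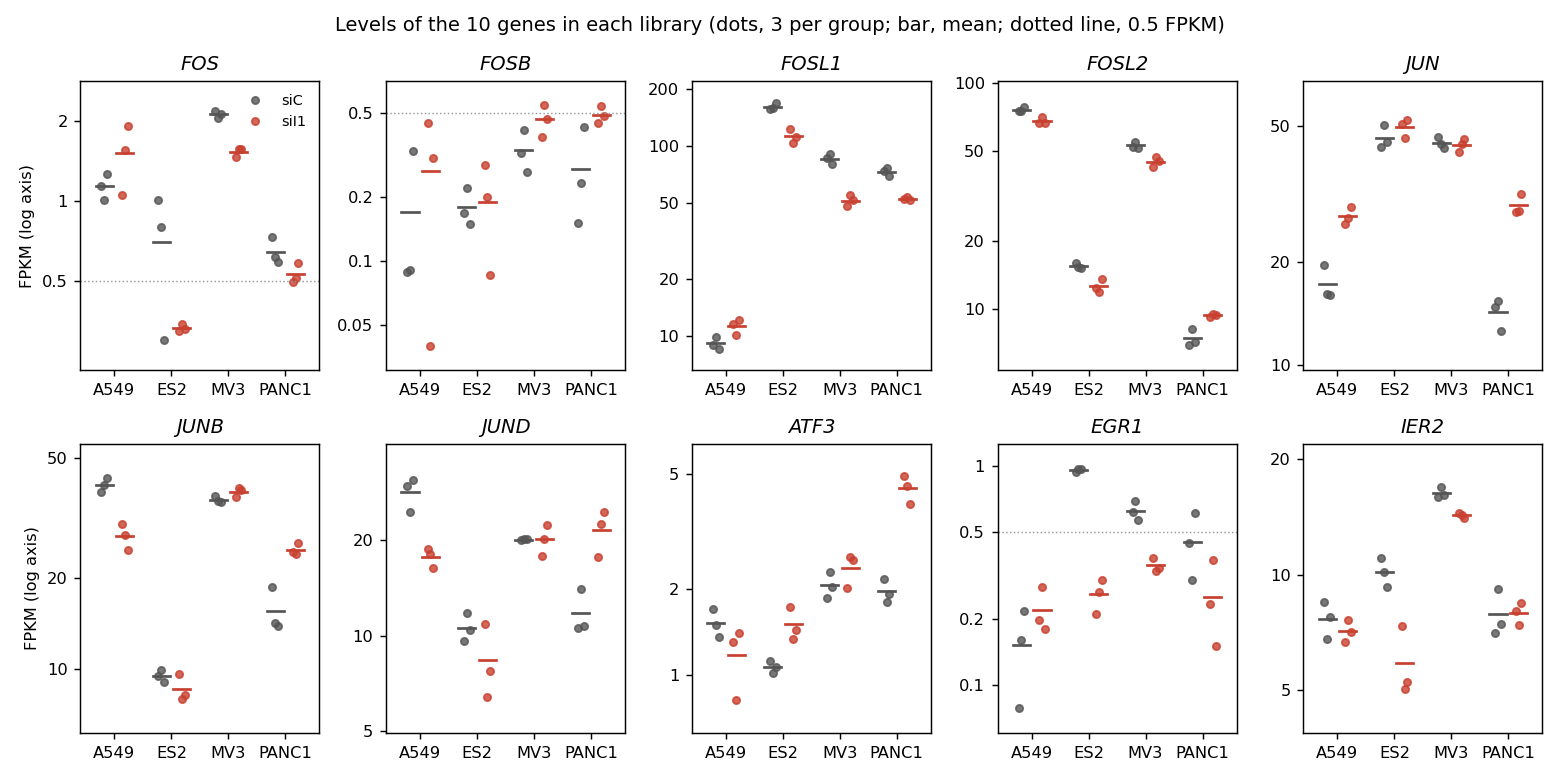
Level of each gene in every library, in FPKM on a log axis that differs between panels, for siC (grey) and siI1 (red) in 4 lines; dots are the 3 libraries of a group and bars their mean. FOSL1 siI1 libraries sit below siC in ES2, MV3 and PANC1, JUN siI1 libraries above siC in A549 and PANC1, and FOSB stays near or under 0.5 FPKM throughout.

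FOSL1, also called FRA-1, is the FOS family member that ERK signalling keeps high in many carcinoma lines, and its protein lacks the activation domain of FOS. The gene (ENSG00000175592) lies on chromosome 11 at 65892049-65900573 of hg38, minus strand. In siC its level was 162 ± 6.95 FPKM (SD, n = 3) in ES2, 85.8 ± 5.03 in MV3, 73.5 ± 3.26 in PANC1 and 9.13 ± 0.652 in A549, and no neighbours in this order overlapped.

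In MV3 FOSL1 stood at 86.4, 90.5 and 80.5 FPKM in siC and at 48.2, 55.1 and 51.8 FPKM in siI1. Every siI1 library lay well under the lowest siC library. The fall was 0.73 ± 0.06 (SE) on the log2 scale, a limma adjusted p of 0.000486, and 7.15% of all genes tested in MV3 had a change at least as large in either direction. In ES2 the siC libraries held 157, 158 and 170 FPKM and the siI1 libraries 123, 104 and 112 FPKM, again without overlap. FOSL1 fell there by 0.51 ± 0.07 (limma adjusted p = 0.00354). In PANC1 the values were 74.1, 76.3 and 69.9 FPKM in siC and 52.7, 54.1 and 51.9 FPKM in siI1, tight groups that did not overlap. The fall was 0.47 ± 0.05 (limma adjusted p = 0.00254), and with equal sums the value was -1.22, or -0.54 relative to the median of all genes under that scaling. Falls in 3 or more lines were called for 7.19% of the 12816 genes.

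A549 stood apart for FOSL1. Its siC libraries held 8.97, 9.85 and 8.58 FPKM, or 69 to 74 reads, and its siI1 libraries 11.5, 10.1 and 12.1 FPKM. All siI1 libraries were the higher ones, but the difference of 0.29 ± 0.09 did not pass the test (limma adjusted p = 0.103). The direct test between lines gave a limma adjusted p of 1.60e-06.

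FOSL2, or FRA-2, is the other FOS-related antigen and shares the missing activation domain. In siC A549, the lowest line for FOSL1, was the highest for FOSL2: levels were 76.3 ± 1.99 FPKM in A549, 52.9 ± 1.74 in MV3, 15.5 ± 0.410 in ES2 and 7.38 ± 0.650 in PANC1 (n = 3 each), with no overlap of neighbours. The gene (ENSG00000075426, chr2:28392448-28417317, plus strand) overlaps FOSL2-AS1 on the opposite strand, and since the strand setting of the counting is not given in the sources used here, reads of such pairs cannot be told apart.

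In MV3 FOSL2 had 52.1, 54.9 and 51.7 FPKM in siC and 42.3, 47.1 and 45.0 FPKM in siI1. The siI1 libraries were all lower, by 0.24 ± 0.05 (limma adjusted p = 0.00985). In ES2 the values were 15.9, 15.2 and 15.2 FPKM against 12.4, 11.9 and 13.5 FPKM, also without overlap. The fall of 0.29 ± 0.06 passed the test (limma adjusted p = 0.0188), but not without siC replicate 1 (0.0610), siI1 replicate 1 (0.0602) or siI1 replicate 2 (0.0561), nor with equal sums (0.103). In PANC1 FOSL2 had 6.93, 8.13 and 7.09 FPKM in siC and 9.22, 9.46 and 9.33 FPKM in siI1. The rise was 0.32 ± 0.08 (limma adjusted p = 0.0255). With equal sums it turned to -0.39 and was not called (0.0634), or 0.29 relative to the median of all genes. That call was also lost when any library other than siC replicate 2 was left out, with limma adjusted p from 0.0693 to 0.0890. In A549, where FOSL2 was the main FOS family transcript, it had 75.4, 74.9 and 78.6 FPKM in siC and 66.7, 70.6 and 66.7 FPKM in siI1, and the difference of -0.16 ± 0.05 missed the threshold (limma adjusted p = 0.0655), but passed it in limma voom fitted to recovered reads (0.0194). For FOSL2 the lines differed (limma adjusted p = 1.70e-05), but not with equal sums (0.421).

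FOS, the founding immediate early gene and a strong activator in its dimers, was low in every line. In siC it reached 2.12 ± 0.0640 FPKM in MV3, 1.14 ± 0.130 in A549, 0.703 ± 0.365 in ES2 and 0.645 ± 0.0745 in PANC1 (n = 3 each), and A549, ES2 and PANC1 overlapped in neighbouring pairs. In MV3 FOS had 2.18, 2.05 and 2.13 FPKM in siC and 1.46, 1.57 and 1.57 FPKM in siI1, from 95 to 109 reads a library. The siI1 libraries were all lower, and FOS fell by 0.36 ± 0.08 (limma adjusted p = 0.0118). In the other lines it was not called: the difference was 0.28 in A549 (limma adjusted p = 0.513), -0.48 in ES2 (0.320) and -0.15 in PANC1 (0.662), each on no more than 23 reads a library. With equal sums FOS in PANC1 was at -0.57, or 0.11 relative to the median of all genes under that scaling. A difference between lines was not detected for FOS (limma adjusted p = 0.124).

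FOSB, a close relative of FOS, held between 0.0396 and 0.542 FPKM in the 24 libraries, on 1 to 61 reads each, and was not tested. In PANC1 its siI1 libraries (0.448, 0.539 and 0.482 FPKM) were all above its siC libraries (0.150, 0.233 and 0.429 FPKM). Tested with no filter, no line called it, with limma adjusted p from 0.333 to 0.970.

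The composition of the FOS family thus differed between lines before any knockdown. FOSL2 made up 88.0% ± 0.659 (SD, n = 3) of summed FOS family FPKM in A549 siC, whereas FOSL1 made up 90.8% ± 0.700 in ES2, 89.9% ± 0.538 in PANC1 and 60.8% ± 0.840 in MV3. FOS and FOSB together stayed a small remainder. After knockdown the share of FOSL1 was 52.4% ± 0.320 in MV3 and 83.6% ± 0.277 in PANC1, differences of -8.31 and -6.22 percentage points, in both lines several times the SD. In ES2 FOSL1 and FOSL2 fell together, and the FOSL1 share of 89.6% ± 0.734 differed by -1.21 points with overlapping libraries. In A549 it was 13.9% ± 1.40 against 10.5% ± 0.908, or 3.36 points higher. Summed over the family, levels went from 178 ± 6.32 to 126 ± 9.40 FPKM in ES2, from 141 ± 6.63 to 98.5 ± 5.99 in MV3, from 81.8 ± 3.64 to 63.3 ± 1.20 in PANC1 and from 86.7 ± 1.75 to 81.0 ± 1.28 in A549. Shares do not depend on library scaling and were not tested.

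**Figure D2:**
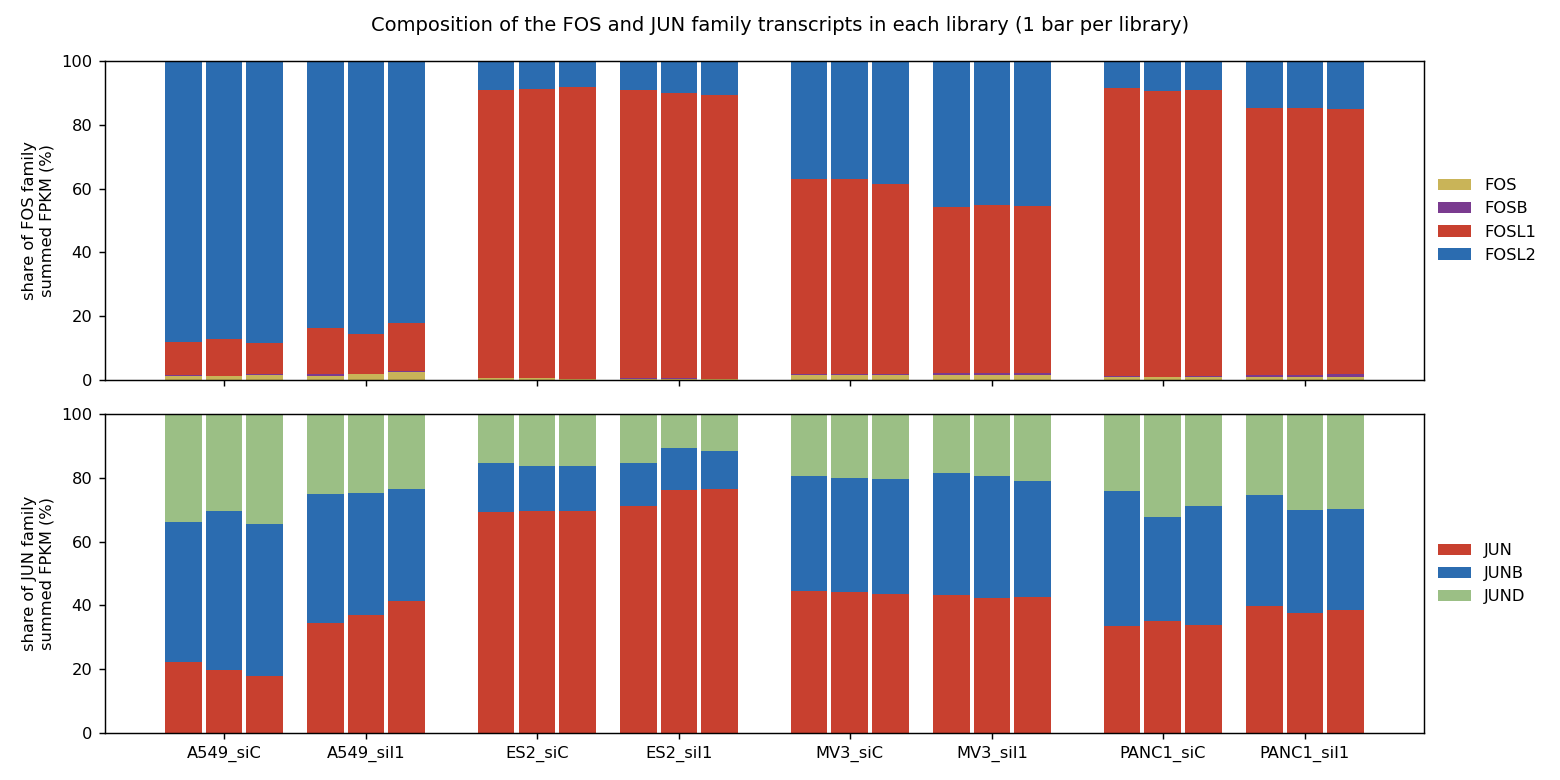
Share of each member in the summed FPKM of the FOS family (top) and the JUN family (bottom), in percent, with 1 bar for each of the 24 libraries. FOSL2 fills 87.2% to 88.5% of the FOS family in A549 siC, FOSL1 most of it in ES2 and PANC1, and JUN goes from 17.8% to 22.2% of the JUN family in A549 siC to 34.5% to 41.3% in siI1.

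JUN is the activating partner of most AP-1 dimers and can raise its own transcription. The gene (ENSG00000177606) lies at chr1:58776845-58784048, minus strand. In siC it was at 46.1 ± 3.64 FPKM in ES2 and 44.6 ± 1.63 in MV3, which overlapped, and at 17.2 ± 1.99 in A549 and 14.2 ± 1.49 in PANC1, which did not (n = 3 each).

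In PANC1 JUN had 14.8, 15.4 and 12.5 FPKM in siC and 28.0, 28.1 and 31.7 FPKM in siI1. All siI1 libraries were far above all siC libraries. The rise was 1.02 ± 0.09 on the log2 scale, or 2.02-fold (limma adjusted p = 0.00162), and 5.84% of all genes tested there had a change at least as large. With equal sums it was 0.28 and not called (limma adjusted p = 0.159), and relative to the median of all genes under that scaling 0.96. In A549 JUN had 19.5, 16.1 and 16.0 FPKM in siC and 25.9, 26.8 and 28.9 FPKM in siI1, again without overlap. It rose by 0.65 ± 0.09, or 1.57-fold (limma adjusted p = 0.00828), and was called under every scaling tried.

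In the lines where JUN was highest it was not called. ES2 had 43.2, 50.2 and 44.8 FPKM in siC and 50.5, 46.2 and 52.0 FPKM in siI1, overlapping groups with a difference of 0.11 and a 95% interval from -0.07 to 0.28 (limma adjusted p = 0.359). MV3 had 46.3, 44.3 and 43.1 FPKM in siC and 42.0, 44.1 and 45.8 FPKM in siI1. The difference there was -0.02 (limma adjusted p = 0.768), with an interval from -0.12 to 0.09 that leaves out changes of the size seen in A549. Scaled by total reads it was 0.038 (limma adjusted p = 0.377). The lines differed for JUN (limma adjusted p = 4.05e-06).

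JUNB, which activates more weakly and can oppose JUN, is encoded without introns at chr19:12791486-12793315 (ENSG00000171223, plus strand) and overlaps HOOK2 on the opposite strand. In siC it was at 40.8 ± 2.16 FPKM in A549, 36.4 ± 0.983 in MV3, 15.6 ± 2.74 in PANC1 and 9.51 ± 0.451 in ES2 (n = 3 each), with no overlap of neighbours. A549 libraries had 38.7, 40.9 and 43.0 FPKM in siC and 30.2, 27.9 and 24.8 FPKM in siI1. All siI1 libraries were lower, and JUNB fell by 0.56 ± 0.08 (limma adjusted p = 0.00958). PANC1 libraries had 18.8, 14.2 and 13.9 FPKM in siC and 24.4, 24.1 and 26.2 FPKM in siI1, with siC replicate 1 the highest of its group but still under all siI1 libraries. JUNB rose there by 0.67 ± 0.12 (limma adjusted p = 0.0104), a direction that became -0.067 with equal sums and 0.61 relative to the median of all genes. In ES2 the difference was -0.14 (limma adjusted p = 0.291) and in MV3 0.09 (0.106). The lines differed for JUNB (limma adjusted p = 6.61e-06).

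JUND, the member most widely present in resting cells, lies at chr19:18279694-18281622 (ENSG00000130522, minus strand) and moved as JUNB did. In siC it was at 28.5 ± 3.38 FPKM in A549, 20.1 ± 0.107 in MV3, 11.8 ± 1.93 in PANC1 and 10.6 ± 1.10 in ES2 (n = 3 each), the last pair overlapping. A549 libraries had 29.7, 24.7 and 31.1 FPKM in siC and 18.9, 18.1 and 16.4 FPKM in siI1. They did not overlap, and JUND fell by 0.66 ± 0.10 (limma adjusted p = 0.0105). PANC1 libraries had 10.6, 14.0 and 10.7 FPKM in siC and 17.7, 22.5 and 24.5 FPKM in siI1. JUND rose by 0.85 ± 0.15 (limma adjusted p = 0.0109), which was 0.11 and not called with equal sums (0.578), or 0.79 relative to the median of all genes. In ES2 the siI1 libraries spread from 6.40 to 10.9 FPKM across the siC range of 9.61 to 11.8 FPKM, and the difference of -0.36 was not called (limma adjusted p = 0.229) unless siI1 replicate 1 was left out (-0.55, 0.0371). In MV3 it was -0.01 (limma adjusted p = 0.968), or 0.051 when scaled by total reads (0.602). The lines differed for JUND (limma adjusted p = 0.000127).

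Within the JUN family the balance changed most in A549. The share of JUN there went from 19.9% ± 2.21 to 37.6% ± 3.42 (SD, n = 3), or 17.6 points higher, as JUN rose while JUNB and JUND fell. In PANC1 all JUN genes rose with the deposited scaling, and the share of JUN went from 34.2% ± 0.953 to 38.6% ± 1.15. It went from 69.6% ± 0.214 to 74.6% ± 3.02 in ES2 and from 44.0% ± 0.528 to 42.7% ± 0.444 in MV3. The summed JUN family level was 41.6 ± 3.88 FPKM in PANC1 siC and 75.7 ± 6.20 in siI1, against 86.6 ± 4.40 and 72.6 ± 2.44 in A549. In ES2 the sums were 66.2 ± 5.06 and 66.5 ± 5.37 FPKM, and in MV3 101 ± 2.50 and 103 ± 5.24 FPKM, less apart than their SD. FOSL2, JUNB and JUND were each called lower in at least 1 line and higher in another, as were 6.03% of the 12816 genes.

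**Figure D3:**
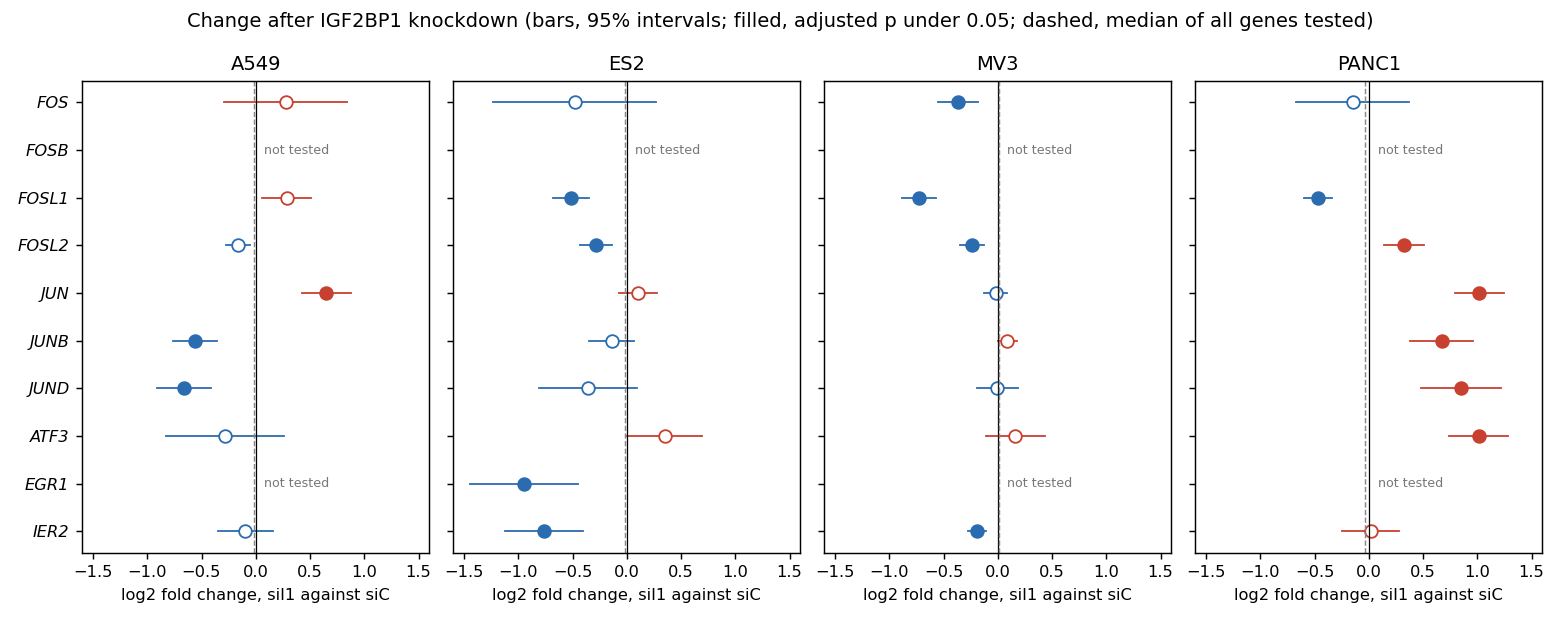
Log2 fold change of siI1 against siC on the log2(FPKM + 0.5) scale for each gene in the 4 lines; bars are 95% intervals, filled dots have a limma adjusted p under 0.05, and the dashed line is the median of all genes tested. JUN, JUNB, JUND, ATF3 and FOSL2 lie right of 0 in PANC1 with the deposited scaling, whereas JUNB and JUND lie left of 0 in A549. With equal sums FOSL2 and JUNB turned to -0.39 and -0.067 in PANC1, where the median of all genes was -0.68.

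ATF3, a stress-induced gene whose protein pairs with JUN proteins and often represses, was low in siC in all lines, from 1.07 ± 0.0496 FPKM in ES2 to 2.06 ± 0.218 in MV3 (n = 3 each). In PANC1 it had 2.17, 1.80 and 1.92 FPKM in siC and 4.92, 4.57 and 3.94 FPKM in siI1. The groups lay far apart, on 62 to 136 reads a library. ATF3 rose by 1.01 ± 0.11 (limma adjusted p = 0.00247), as large a change as that of JUN, and stood at 0.37 and not called with equal sums (0.151), or 1.05 relative to the median of all genes. In ES2 the siI1 libraries (1.73, 1.34 and 1.44 FPKM) were above the siC libraries (1.12, 1.02 and 1.06 FPKM), a difference of 0.35 that did not pass (limma adjusted p = 0.136). It was 0.16 in MV3 (limma adjusted p = 0.312) and -0.28 in A549 (0.483), with overlapping groups. The lines differed for ATF3 (limma adjusted p = 0.000255).

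EGR1, a zinc finger factor induced beside FOS, was nearly absent, and it passed the filter only in ES2 through its siC libraries. There it had 0.943, 0.971 and 0.972 FPKM in siC and 0.210, 0.265 and 0.302 FPKM in siI1, on 19 to 22 and 5 to 8 reads. The siC libraries were close together and far above siI1. EGR1 fell by 0.95 ± 0.21 on the log2 scale, where the pseudocount holds the value back (limma adjusted p = 0.0207), and leaving out any library took the adjusted p to between 0.0503 and 0.0691. MV3 siC libraries (0.614, 0.691 and 0.565 FPKM) were also all above siI1 (0.381, 0.330 and 0.341 FPKM), which without the filter gave -0.40 and a limma adjusted p of 0.0789. In PANC1 the means were 0.450 ± 0.154 and 0.251 ± 0.111 FPKM and in A549 0.152 ± 0.0703 and 0.219 ± 0.0535 FPKM (n = 3 each), on 1 to 16 reads.

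IER2, an immediate early gene for a nuclear protein outside the AP-1 families, was at 16.3 ± 0.498 FPKM in MV3 siC, 10.2 ± 0.899 in ES2, 7.88 ± 1.11 in PANC1 and 7.66 ± 0.838 in A549 (n = 3 each), the last pair overlapping. In ES2 it had 11.0, 10.2 and 9.25 FPKM in siC and 7.32, 5.01 and 5.24 FPKM in siI1. All siI1 libraries were lower, replicate 1 least so. IER2 fell by 0.76 ± 0.15 (limma adjusted p = 0.0138, and 0.0527 without siI1 replicate 3). In MV3 it had 16.0, 16.9 and 16.2 FPKM in siC and 14.4, 14.3 and 14.1 FPKM in siI1, tight groups that differed by -0.19 ± 0.03 (limma adjusted p = 0.00715), a call lost with equal sums (0.0673). In A549 the difference was -0.10 (limma adjusted p = 0.609) and in PANC1 0.02 (0.930), or -0.69 and called with equal sums (0.0102) and -0.14 scaled by total reads. The lines differed for IER2 (limma adjusted p = 0.00270). IER2 also overlaps unnamed genes on the opposite strand, as FOSB overlaps ERCC1.

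Upstream of these genes, SRF fell in all 4 lines, as did 2.51% of the 12816 genes. It went from 11.8 ± 1.18 to 3.75 ± 0.288 FPKM in A549 (n = 3 each), a fall of 1.53, and fell by 1.23 in ES2, 0.90 in MV3 and 0.68 in PANC1, where equal sums gave -1.41, with limma adjusted p from 0.000190 to 0.00528. ELK4, an SRF partner, fell in A549, MV3 and PANC1, and so did RPS6KA3, a kinase under ERK, though in MV3 (-0.27, limma adjusted p = 0.0218) its call was lost in 5 of 6 fits that left out a library, with limma adjusted p up to 0.0752. Of the upstream list of 19 SRF and ternary complex factors, ERK, JNK and p38 kinases and CREB and MEF2 factors, 5 were lower and 1 higher of 18 tested in A549, 3 and 1 of 18 in ES2, 7 and 1 of 17 in MV3 and 6 and 2 of 17 in PANC1. Its median log2 fold change was -0.16, -0.13, -0.09 and -0.08 in that order, where that of all genes was between -0.04 and 0.01. The MV3 count of 7 became 4 with equal sums or total reads, and 4 to 5 when any library was left out. Among all genes tested in MV3, 16.7% were lower with equal sums and 15.7% by total reads, in place of 19.5%. Without 1 library they numbered 2498 to 3037 in place of 3190. PANC1 had 15 lower and 0 higher with equal sums, where 55.8% of all genes were lower and 0.600% higher. It had 1 higher in place of 2 when any library was left out, where 1041 to 1888 of all genes were higher in place of 1796. Called genes made up 33.3% of the list in A549 against 13.8% of all genes, 47.1% in MV3 against 35.7%, 47.1% in PANC1 against 24.8%, and 22.2% in ES2 against 23.5%.

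Among 14 other leucine zipper partners of FOS and JUN proteins, of which 9 to 11 were tested, A549 had 1 lower and 0 higher, ES2 4 and 0, MV3 4 and 1, and PANC1 1 and 1, or 5 and 0 with equal sums, where 55.8% of all genes were lower. The called share was 9.09% in A549 and 22.2% in PANC1, under the 13.8% and 24.8% of all genes, and 44.4% in ES2 and 55.6% in MV3, against 23.5% and 35.7%. MAFF and MAFK, small MAF proteins without an activation domain, were lower in ES2 and MV3. MAFF went from 4.94 ± 0.355 to 1.94 ± 0.142 FPKM in ES2 (n = 3 each), a fall of 1.16 (limma adjusted p = 0.000704). ATF4, the integrated stress response factor, was lower in A549, ES2 and MV3, by 0.61 in MV3 (limma adjusted p = 0.000359), and its smallest fall, 0.24 in A549, was lost in 5 of 6 fits that left out a library, with limma adjusted p up to 0.0877. Of the remaining calls, DDIT3 rose by 0.47 in PANC1 (limma adjusted p = 0.00465), or -0.27 with equal sums. ATF2 was lower in PANC1 by 0.37 (limma adjusted p = 0.0205, or -1.09 with equal sums), lost in 4 of 6 such fits, and higher in MV3 by 0.17 (0.0428), lost in all 6.

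The other immediate early genes moved in both directions according to the line. Of the 34 listed, 2 were lower and 7 higher of 28 tested in A549, 11 and 3 of 23 in ES2, 14 and 1 of 26 in MV3 and 0 and 7 of 24 in PANC1. Medians of log2 fold change were 0.13 in both A549 and PANC1, -0.22 in ES2 and -0.20 in MV3. Without 1 library at a time the A549 rises numbered 1 to 5 and the ES2 falls 6 to 8, both fewest without siI1 replicate 1 of the line. Equal sums gave 14 lower and 1 higher in PANC1, near the 55.8% of all genes that were lower under that scaling. The median of all genes in PANC1 was then -0.68. With the deposited scaling, 7.83% of all genes were lower and 5.93% higher in A549, 13.0% and 10.5% in ES2, 19.5% and 16.3% in MV3, and 13.4% and 11.3% in PANC1. DUSP5, a nuclear ERK phosphatase, went from 51.8 ± 2.52 to 17.7 ± 1.84 FPKM in ES2 (n = 3 each), a fall of 1.53 (limma adjusted p = 0.000190), fell by 0.69 in MV3 (0.00263) and rose by 0.52 in PANC1 (0.00474), which was -0.22 with equal sums. Its cytoplasmic relative DUSP6 fell by 0.85 in ES2 (limma adjusted p = 0.000818) and rose by 1.04 in A549 (0.0171), a call lost in 3 of 6 fits that left out a library, with limma adjusted p up to 0.0611. DUSP6 also fell in MV3, by 0.15 (limma adjusted p = 0.0205, lost in 3 of 6 such fits, up to 0.0666). DUSP1, a phosphatase of JNK and p38, fell by 0.59 in ES2 (limma adjusted p = 0.00260) and 0.56 in MV3 (0.00108) and rose by 0.47 in PANC1 (0.00291), or -0.28 with equal sums. The largest rise of the list in PANC1 was that of TRIB1, a pseudokinase gene, from 6.72 ± 0.262 to 19.0 ± 2.46 FPKM (n = 3 each), or 1.43 (limma adjusted p = 0.000857), and 0.71 with equal sums (0.0166). IER5L followed with 1.00 (0.00165), which was 0.28 and not called with equal sums (0.183). TRIB1 was also called higher in MV3, by 0.14 (limma adjusted p = 0.0280, lost in 5 of 6 fits that left out a library). IER5L was also called higher in A549, by 0.40 (limma adjusted p = 0.0405, lost in 4 of 6 such fits). DUSP4 was lower in A549, ES2 and MV3, by 0.30 to 0.48, its ES2 call lost in 5 of 6 such fits (limma adjusted p up to 0.0832). GADD45B fell by 0.80 in A549 (limma adjusted p = 0.0165, lost in 3 of 6, up to 0.0641) and by 0.36 in MV3 (0.0102).

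Of 21 genes known in the literature as AP-1 targets, 2 were lower and 7 higher of 16 tested in A549, 8 and 1 of 16 in ES2, 11 and 2 of 17 in MV3 and 3 and 2 of 16 in PANC1. The called share was 56.2% in A549 against 13.8% of all genes, 56.2% in ES2 against 23.5%, 76.5% in MV3 against 35.7%, and 31.2% in PANC1 against 24.8%. The median log2 fold change of those tested was 0.25, -0.42, -0.27 and -0.07 in that order, where that of all genes was between -0.04 and 0.01. In A549 leaving out a library left 5 to 6 higher and 0 to 1 lower, and in PANC1 0 to 2 lower, and equal sums gave 9 of 16 lower and 0 higher in PANC1, near the 55.8% of all genes. MMP1, the interstitial collagenase and the textbook gene of the TPA response element, went from 4026 ± 134 to 1032 ± 47.7 FPKM in ES2 (n = 3 each), a fall of 1.96 (limma adjusted p = 6.23e-05). In the other lines its mean was at most 3.34 FPKM in any group. MV3 alone of them called it, lower by 0.39 (limma adjusted p = 0.0335, lost in 4 of 6 fits that left out a library). CXCL8, encoding interleukin 8, went from 55.8 ± 5.45 to 15.4 ± 0.653 FPKM in ES2, a fall of 1.82 (limma adjusted p = 0.000105), and fell by 0.65 in MV3 (0.00195). PLAU, the urokinase gene, fell by 1.17 in MV3 (limma adjusted p = 4.47e-05), and the metallothionein gene MT2A by 0.71 (0.000798). MT2A fell by 0.97 in ES2 too (limma adjusted p = 0.0199, lost in 4 of 6 fits that left out a library, up to 0.0674), and rose by 0.90 in A549 (0.00167). In A549, IL11 rose from 15.2 ± 1.44 to 40.1 ± 2.04 FPKM, or by 1.38 (limma adjusted p = 0.000734), and VEGFA by 1.34 (0.000860). VEGFA also rose in MV3, by 0.26 (limma adjusted p = 0.00281). HMGA1, a chromatin protein gene, fell by 0.64 in ES2 (limma adjusted p = 0.00244) and rose by 0.54 in A549 (0.0109) and 0.71 in PANC1 (0.00223), the last being -0.042 with equal sums. CCND1, cyclin D1, fell by 0.31 in MV3 (limma adjusted p = 0.00101) and by 0.32 in A549 (0.0213, lost in 4 of 6 such fits, up to 0.0788). It rose by 0.35 in PANC1 (limma adjusted p = 0.0161), or -0.39 with equal sums and not called in 2 of 6 fits that left out a library (up to 0.0604). LIF was lower in ES2, MV3 and PANC1, by 0.66, 0.25 and 0.34, the last being -1.06 with equal sums, its PANC1 call lost in 5 of 6 such fits (limma adjusted p up to 0.121).

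**Figure D4:**
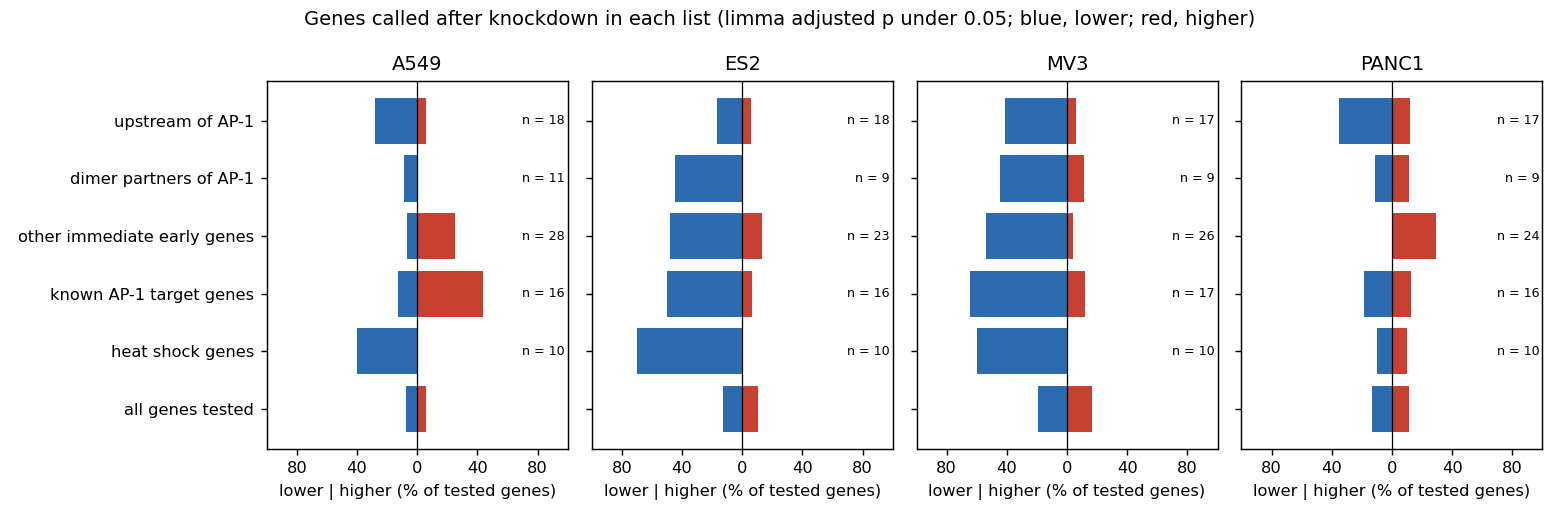
Share of the tested genes of each list that limma called lower (blue, to the left) or higher (red, to the right), in percent, beside the share among all genes tested in that line. Immediate early genes and AP-1 targets are mostly on the lower side in ES2 and MV3; the rises in PANC1 hold for the deposited scaling, equal sums giving 14 lower and 1 higher of 24 immediate early genes there, where 55.8% of all genes were lower.

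Heat shock genes were counted as a measure of stress moving beside these results. Of 10 listed and tested everywhere, A549 had 4 lower, ES2 7, MV3 6 and PANC1 1, and only PANC1 had any higher, namely 1. Leaving out a library left 4 to 6 lower in MV3, fewest without siC replicate 1, and 0 to 2 higher in PANC1. Among all genes these fits called 2498 to 3037 lower in MV3, in place of 3190, and 1041 to 1888 higher in PANC1, in place of 1796. Equal sums gave 8 lower and 0 higher in PANC1, where 55.8% of all genes were lower. The called share was 40% in A549, 70% in ES2 and 60% in MV3, against 13.8%, 23.5% and 35.7% of all genes, and 20% in PANC1, under the 24.8% of all genes. HSPD1, the mitochondrial chaperonin, was lower in all 4 lines, by 0.62 in A549 to 1.09 in PANC1, where equal sums gave -1.84, with limma adjusted p from 5.93e-05 to 0.00125. DNAJB1 was lower in A549, ES2 and MV3, by 0.84, 0.50 and 0.20, the last lost in 4 of 6 fits that left out a library (limma adjusted p up to 0.0988). HSPA1A, an inducible HSP70 gene, fell by 0.75 in A549 (limma adjusted p = 0.00378). HSPB1 fell by 0.45 in A549 (limma adjusted p = 0.00916) and by 0.70 in ES2 (0.0298, lost in 4 of 6 such fits, up to 0.0942). HSPE1 fell by 0.50 in ES2 (limma adjusted p = 0.00469) and by 0.42 in MV3 (0.000267). BAG3 rose by 0.70 in PANC1 (limma adjusted p = 0.0151, lost in 3 of 6 such fits, up to 0.0583), or -0.040 with equal sums. Their part in the results for FOS and JUN genes was not tested.

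For each member with at least 0.5 FPKM in every line, the protein-coding gene with the most similar course was sought over the 24 libraries, after centring each line, among 4921 genes with at least 5 FPKM in every line. The Pearson r was 0.947 for FOSL1 with NCL, which encodes nucleolin, 0.978 for JUN with the ribosomal protein gene RPL27, 0.942 for FOSL2 with SGTA, 0.928 for JUNB with NDUFA13 and 0.910 for JUND with DGKD. It was 0.934 for ATF3 with UBAP1 and 0.810 for FOS with NUP93. Among the members the highest was 0.842, between JUNB and JUND, and the lowest -0.564, between FOSL1 and ATF3. These values describe 24 libraries that share 4 lines and their knockdowns, and each partner was the best of 4921 genes.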

How the data were processed

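The 24 total RNA libraries were placed in 8 groups of 3 by their labels. According to the submitters' notes and the methods, the authors trimmed reads with cutadapt (1.14), aligned them to hg38 with HISAT2 (2.1.0), handled alignments with SAMtools (1.5), counted with featureCounts (1.5.3) and tested with edgeR (3.30.3). The authors deposited 1 table per line with an FPKM value per library, with TMM scaling; values times gene length were whole reads in 100% of cases (tolerance 0.001 reads). The deposited gene length is in bases. The authors' own log2 fold changes, p-values and FDR stand in the same tables and were not used.

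FPKM were taken as log2(FPKM + 0.5), a gene was kept in a line where its 6 libraries averaged 0.5 FPKM or more, and limma 3.58.1 (R 4.3.3, intensity trend, two-sided) was fitted per line over all genes kept, with Benjamini-Hochberg adjustment and a threshold of 0.05. Lines were compared in 1 limma model of 24 libraries with a moderated F test of the 3 interaction terms. The fits were also run on simulated reads with the same spread setting for every gene and line. Replicates here differed in spread between groups, so no conclusion is drawn from that run. The methods call the libraries biological replicates but the labels name no separate cultures, so p-values measure the spread between these samples.

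The members and the lists were chosen with earlier results of these data known. Named genes are the members, IGF2BP1, list genes called in 1 direction in at least 3 lines, the 2 largest called changes per list and line with a mean of at least 1 FPKM, and the most similar gene of each member; a few genes that meet this rule, or belong to the marker lists, are not reported here. Pairs of replicates of a group differed beyond sampling noise (chi-square per gene from 1.54 to 15.1). Library scaling factors were 0.905 to 1.10. Alternatives were pseudocounts of 0.1 and 1, other filters, equal sums, limma voom on recovered reads, a replicate block, leaving out each library, Cochran's Q and, chosen after seeing the data, scaling by total reads. Sequences were read from hg38 with GENCODE 44 and from RefSeq (GRCh38.p14). Figures were drawn with Python 3.11.15, pandas 2.3.3, numpy 2.4.6 and matplotlib 3.10.9.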

Additional observations from a re-analysis of the deposited data

Results flagged for a closer look

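The knockdown effect differed between the 4 lines for 7 of the 8 genes tested in every line, by the moderated F test of the interaction terms in limma. The adjusted p over 12816 genes was 1.60e-06 for FOSL1, whose log2 fold change ran from -0.73 in MV3 to 0.29 in A549. It was 4.05e-06 for JUN, from -0.02 in MV3 to 1.02 in PANC1, and 6.61e-06 for JUNB, from -0.56 in A549 to 0.67 in PANC1. For FOSL2 it was 1.70e-05, from -0.29 in ES2 to 0.32 in PANC1, but 0.421 with libraries rescaled to equal sums. JUND had 0.000127, from -0.66 in A549 to 0.85 in PANC1, ATF3 had 0.000255, from -0.28 in A549 to 1.01 in PANC1, and IER2 had 0.00270, from -0.76 in ES2 to 0.02 in PANC1. Under equal sums the PANC1 ends of these ranges were 0.28 for JUN, -0.067 for JUNB, 0.11 for JUND and 0.37 for ATF3, and these genes stayed past the threshold of the F test. IER2 was then called lower in PANC1, at -0.69 (limma adjusted p = 0.0102) or -0.015 relative to the median of all genes. It stood beside -0.69 in ES2, -0.20 in MV3 and -0.13 in A549, and its F test under that scaling is not reported here. The fall of IGF2BP1 itself also differed between lines (limma adjusted p = 9.77e-05), from -1.32 in A549 to -1.83 in PANC1. A549 siI1 libraries still held a mean of 15.6 FPKM of IGF2BP1, set beside 2.78 in PANC1 siI1. Line, tumour type, depth, strength of the knockdown and, for PANC1, harvest time cannot be told apart in these differences.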

How the results depend on the processing

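Pseudocounts of 0.1 and 1 and no filter changed none of the 33 calls of members. A filter of 1 FPKM left 30 of them, all unchanged, and dropped EGR1 in ES2, so that 3 members were lower there in place of 4. Calls in PANC1 depended on scaling. With equal sums 2 members were lower and 0 higher there, in place of 1 and 5, and these directions reversed: FOSL2 -0.39, JUNB -0.067, IER2 -0.69, DDIT3 -0.27, BAG3 -0.040, CCND1 -0.39, HMGA1 -0.042, DUSP1 -0.28 and DUSP5 -0.22. The median of all genes was -0.68 under that scaling and -0.18 under total reads, against -0.04. Relative to it JUN was at 0.96, JUNB 0.61, JUND 0.79, ATF3 1.05, FOSL2 0.29 and FOSL1 -0.54. Scaling by total reads, chosen after seeing the data, reversed uncalled values, JUN in MV3 (0.038), JUND in MV3 (0.051) and IER2 in PANC1 (-0.14), and called 1 member higher in MV3 in place of 0 (JUNB, 0.15, limma adjusted p = 0.00601). In PANC1 the FOSL2 rise became 0.17 and lost its call under total reads (limma adjusted p = 0.113), whereas JUN, JUNB, JUND and ATF3 stayed called higher. Among all genes tested in PANC1, 8844 were lower and 95 higher with equal sums, and 3487 and 1047 by total reads, in place of 2131 and 1796.

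Leaving out a library gave 2 to 3 members lower in ES2 in place of 4 and 4 to 5 higher in PANC1 in place of 5, and other member counts in a line stayed as they were. Calls among all genes moved too: 1497 to 1720 were lower in ES2 in place of 2201, and 1041 to 1888 higher in PANC1 in place of 1796. A549 had 796 to 1036 lower and 526 to 761 higher, in place of 1441 and 1092. MV3 had 2498 to 3037 lower and 1903 to 2557 higher, in place of 3190 and 2663. JUN in MV3 ranged from -0.048 to 0.013, JUND in MV3 from -0.082 to 0.079 and IER2 in PANC1 from -0.054 to 0.12, each changing sign without a call.

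With limma voom on recovered reads, 2339 genes were lower and 1837 higher in A549, in place of 1441 and 1092, and FOSL2 there became called. No pairing by replicate number was seen: same-numbered siC and siI1 libraries deviated together with correlations of only -0.056 to 0.071. These values cannot show whether same-numbered libraries came from the same culture. With the number as a replicate block, 1 member was lower in A549 in place of 2 and 2 in ES2 in place of 4. The members lost were JUNB in A549 (limma adjusted p = 0.0568), EGR1 (0.0785) and FOSL2 (0.0636) in ES2, FOS in MV3 (0.0501) and FOSL2 in PANC1 (0.0509). All genes called lower in A549 went from 1441 to 622 and higher from 1092 to 379, and in ES2 from 2201 to 1443 and from 1772 to 1169. The causes of these shifts were not tested. Depth limits FOS, FOSB and EGR1, which outside MV3 rested on at most 23 reads a library.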
